A study of Mus musculus with 2 samples.

Results

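Cytosolic sulfotransferases and the enzymes that make and clear their sulfate donor were examined in primary mouse hepatocytes treated with pregnenolone 16α-carbonitrile (PCN). The set held 9 genes, taken by gene symbol from the 15644 probe sets that carried 1. It comprised the sulfotransferases Sult1a1, Sult1b1, Sult1c2, Sult1d1, Sult1e1 and Sult5a1, the PAPS synthases Papss1 and Papss2, and the nucleotidase Bpnt1. Each had 1 probe set, and all 9 were found by Entrez number, with the same symbol, among the RefSeq genes of GRCm38.p6.

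The cells were liver parenchymal cells isolated from a male C57BL/6 mouse 9 weeks of age and kept in culture for 24 h. They then received 10 µmol/l PCN, or dimethyl sulfoxide (DMSO) as vehicle, for 12 h. RNA of 3 samples was pooled for each treatment and hybridised to 1 Affymetrix array, which gave 2 arrays in all and no replicates. PCN, a synthetic steroid, is an agonist of the pregnane X receptor (PXR) of rodents, through which foreign compounds and steroids switch on genes for their own clearance. The spread between cultures is therefore unknown, no difference was tested and no p-value is given.

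Sulfation attaches a sulfonate group to phenols, catechols, steroids and thyroid hormones, which makes most of them more soluble in water and easier to excrete. Cytosolic sulfotransferases (SULTs) take the group from phosphoadenosine phosphosulfate (PAPS). PAPS synthases build PAPS from ATP and inorganic sulfate, and the spent cofactor, phosphoadenosine phosphate (PAP), inhibits the SULTs until a nucleotidase breaks it down. The liver is a main site of this pathway. The hydroxysteroid sulfotransferases of the Sult2a group are known as PXR-responsive genes in mouse liver, and of these only Sult2a8 was analysed here.

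The promoters of the 6 genes whose signals could be measured are shown because their base composition separated the 3 SULT genes from the 3 genes of PAPS turnover. Each window runs from 250 bases before to 50 bases after the transcription start in the RefSeq annotation of GRCm38.p6, and is written from 5′ to 3′ on the gene's strand. For Papss1 and Papss2, which have a second annotated start, the upstream one is shown. Capitals mark CpG dinucleotides. The windows lie at chr7:126676369-126676668 on the minus strand for Sult1a1, chr5:87568957-87569256 on the minus strand for Sult1d1 and chr5:87591562-87591861 on the minus strand for Sult1e1. Those of the PAPS genes lie at chr3:131564518-131564817 for Papss1, chr19:32595465-32595764 for Papss2 and chr1:185331909-185332208 for Bpnt1, all on the plus strand.
Sult1a1: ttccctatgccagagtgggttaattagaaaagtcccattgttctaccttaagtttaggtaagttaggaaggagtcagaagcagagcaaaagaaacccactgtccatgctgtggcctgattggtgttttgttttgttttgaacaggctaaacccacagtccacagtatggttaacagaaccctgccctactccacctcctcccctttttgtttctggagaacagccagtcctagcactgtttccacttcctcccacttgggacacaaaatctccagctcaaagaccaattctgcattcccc
Sult1d1: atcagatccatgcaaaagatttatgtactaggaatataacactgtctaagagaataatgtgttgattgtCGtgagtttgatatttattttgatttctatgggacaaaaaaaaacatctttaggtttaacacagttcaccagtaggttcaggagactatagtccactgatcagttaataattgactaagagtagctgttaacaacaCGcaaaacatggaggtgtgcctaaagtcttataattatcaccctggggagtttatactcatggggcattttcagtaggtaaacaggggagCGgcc
Sult1e1: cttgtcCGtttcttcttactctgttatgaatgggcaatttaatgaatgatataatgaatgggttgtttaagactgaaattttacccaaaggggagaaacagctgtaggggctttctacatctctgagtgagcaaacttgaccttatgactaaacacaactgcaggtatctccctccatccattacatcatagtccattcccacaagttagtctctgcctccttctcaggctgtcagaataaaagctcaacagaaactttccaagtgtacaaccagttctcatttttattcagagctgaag
Papss1: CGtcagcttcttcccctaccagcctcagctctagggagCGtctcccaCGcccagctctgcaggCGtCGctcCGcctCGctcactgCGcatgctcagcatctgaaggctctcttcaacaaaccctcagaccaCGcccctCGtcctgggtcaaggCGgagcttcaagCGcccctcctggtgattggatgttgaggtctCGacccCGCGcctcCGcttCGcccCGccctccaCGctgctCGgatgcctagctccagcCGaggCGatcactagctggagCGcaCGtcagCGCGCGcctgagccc
Papss2: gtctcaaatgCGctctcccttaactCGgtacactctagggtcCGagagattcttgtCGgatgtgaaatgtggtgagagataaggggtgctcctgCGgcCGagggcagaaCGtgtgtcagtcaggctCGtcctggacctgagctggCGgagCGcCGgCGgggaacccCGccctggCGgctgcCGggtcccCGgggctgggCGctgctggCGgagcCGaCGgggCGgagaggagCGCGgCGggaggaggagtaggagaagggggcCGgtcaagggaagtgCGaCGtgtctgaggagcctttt
Bpnt1: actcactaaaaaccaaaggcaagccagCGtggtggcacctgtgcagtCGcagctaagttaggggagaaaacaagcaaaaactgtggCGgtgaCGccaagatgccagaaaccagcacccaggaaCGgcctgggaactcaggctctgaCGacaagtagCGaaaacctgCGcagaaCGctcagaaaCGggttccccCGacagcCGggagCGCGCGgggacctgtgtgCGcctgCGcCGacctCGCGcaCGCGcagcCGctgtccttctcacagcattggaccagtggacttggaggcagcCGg

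The Sult1a1 window held 0 CpG dinucleotides, that of Sult1e1 held 1 and that of Sult1d1 held 3. The windows of Papss1 and Papss2 held 27 each and that of Bpnt1 held 24. Over the 32851 windows of the same length in the RefSeq table, the median was 7. Bases G and C made up 46.3% of the Sult1a1 window, 40.0% of that of Sult1e1 and 37.0% of that of Sult1d1. They made up 66.3% of the Papss1 window, 66.3% of the Papss2 window and 61.3% of the Bpnt1 window, against a median of 52.7% over all windows. The SULT genes without a measurable signal held fewer CpG than the median of 7. Counts were 0 at the upstream start of Sult1b1, 5 for Sult5a1 and 6 for Sult1c2. Those of Sult5a1 and Sult1c2 were not far from the median, since 38.0% and 43.6% of windows held fewer. Bases G and C made up 54.7% of the Sult5a1 window, above the median of 52.7%. The downstream starts differed from the upstream ones of the same gene, with 4 CpG for Sult1b1, 6 for Papss1 and 1 for Papss2. The arrays do not show which start a transcript came from.

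**Figure D1:**
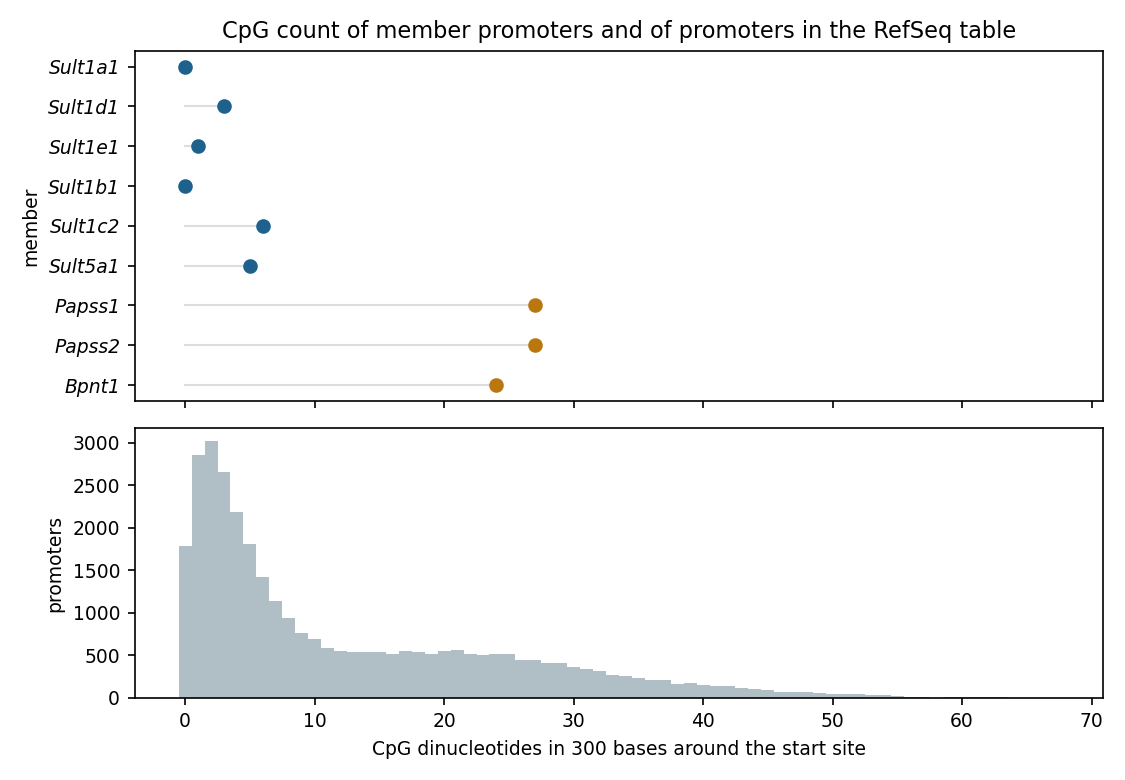
CpG dinucleotides in the 300 bases around the most upstream annotated start of each member (upper panel, 1 point per gene, SULT genes in blue and PAPS genes in ochre) and in all 32851 windows of the RefSeq table (lower panel, number of promoters). The 6 SULT genes hold 0 to 6 CpG and the 3 PAPS genes 24 to 27.

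The windows were also searched on both strands for AGGTCA and AGTTCA, hexamers of the kind that nuclear receptors such as PXR bind. Of the 12 windows of the 9 genes, 4 held a hexamer, against 27.7% of all windows. Sult1d1 held 1 AGTTCA, whose first base lies at position -119 from the start. Sult1e1 held 1 AGGTCA on the opposite strand, at position -113. The upstream window of Sult1b1 held 2 copies of each, and the downstream window of Papss2 held 1 AGGTCA. No member window held 2 hexamers as a direct repeat with 3 bases between them, or as an everted repeat with 6 bases between them. Among all windows the direct repeat occurred in 0.0122% and the everted repeat in 0.00913%. A match is a string of letters and does not show binding, and its absence concerns these windows only.

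Each level is a GCRMA intensity, on a linear scale, and differences are PCN minus DMSO on the log2 scale. A log2 value of 5 (an intensity of 32) was used as a floor, and a gene under it in both arrays was counted as not measured. The floor was reached on both arrays by 6 of the 9 members and on neither by 3. Intensities of different probe sets depend on their probes as well as on RNA abundance, so each gene was compared only with itself. In RNA from a whole culture, fewer cells of a type and less RNA per cell cannot be told apart.

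Every SULT gene that could be measured was lower with PCN, by small amounts. With a floor of 4, Sult1b1 was also measured and was higher. The PAPS genes were slightly higher, apart from Papss2 when a loess trend was removed. The differences of all 6 measured members lay within the range of bacterial and phage controls added from outside, -0.33 to 0.16. Of the 3 measured SULT genes, 3 were lower, where 42.4% of the 6449 measured genes were lower. Of the 3 PAPS genes, 3 were higher, where 57.6% of measured genes were higher. Only Sult1a1 differed by 1.2-fold or more. At that size, 1 of 6 measured members was lower, beside 8.95% of all measured genes, and 0 were higher, beside 9.06%. No measured member differed by 1.5-fold, a size at which 1.3% of measured genes were lower and 0.636% higher. The median log2 difference was -0.21 over the 3 SULT genes and 0.13 over the 3 PAPS genes, beside 0.03 over all measured genes. Over all 6 measured members it was -0.04, and it turned to 0.03 with a floor of 4 and to 0.04 with a floor of 6.

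**Figure D2:**
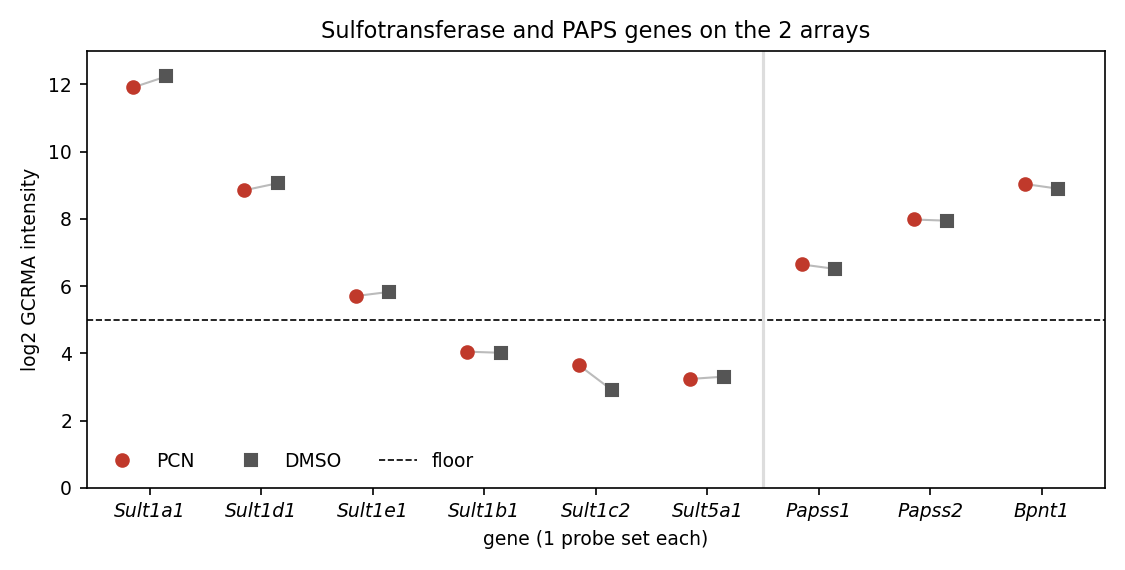
The log2 GCRMA intensity of each member on the PCN array (red circle) and the DMSO array (grey square), 1 value each, with SULT genes left of the vertical line and PAPS genes right of it. The dashed line is the floor of 5. Sult1a1, Sult1d1 and Sult1e1 lie slightly lower with PCN, and Sult1b1, Sult1c2 and Sult5a1 lie under the floor on both arrays.

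Sult1a1 encodes the phenol sulfotransferase, which conjugates simple phenols and many drugs. Its intensity was 3842 with PCN and 4829 with DMSO. The difference was -0.33 on the log2 scale, 1.26-fold lower with PCN, and 5.69% of measured genes had a more negative difference. Bacterial and phage RNAs added from outside give a measure of part of the technical difference between the arrays. They do not cover the culture or any step before they were added. Their 40 probe sets at or above the floor had a mean log2 difference of -0.04 with an SD of 0.11, and ran from -0.33 to 0.16. Several of these probe sets read the same added RNA, so they are not 40 independent controls. Of these 40 controls, 1 was as far below 0 as Sult1a1, so even this largest difference among the measured members lay at the edge of the control range and not outside it.

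Sult1d1 encodes a sulfotransferase that conjugates dopamine and other catechols in mice. It had an intensity of 462 with PCN and 534 with DMSO, a log2 difference of -0.21 and 1.16-fold lower. A more negative difference was found in 12.3% of measured genes, and 3 of the 40 controls were as far below 0. Sult1e1 encodes the estrogen sulfotransferase, which inactivates estradiol. Its intensity was 52.2 with PCN and 56.8 with DMSO, a log2 difference of -0.12, and 7 of the 40 controls were as far below 0. Both genes therefore lay within the range of the controls. In the RefSeq annotation Sult1b1, Sult1d1 and Sult1e1 are 3 consecutive protein-coding genes on chromosome 5, and their windows lie on the same strand. Members of the SULT1 family resemble each other in sequence, and whether a probe set also picks up transcripts of a relative was not tested.

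The remaining SULT genes gave signals too low to measure. Sult1b1, a sulfotransferase that acts on thyroid hormones, had an intensity of 16.6 with PCN and 16.2 with DMSO. Sult5a1 had 9.44 with PCN and 9.90 with DMSO. Sult1c2, of the SULT1C subfamily, had 12.5 with PCN and 7.45 with DMSO. As deposited, these last values stand 1.68-fold apart, higher with PCN, which is the widest ratio among the 9 members. Both values lie under the floor, and no fold is claimed for it. Among the 9195 genes under the floor in both arrays, 0.424% were higher by 1.5-fold or more as deposited and 0.718% were lower by as much.

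Papss1 and Papss2 each encode a bifunctional enzyme that first joins sulfate to ATP and then phosphorylates the product to PAPS. Papss2 is the main form of mouse liver. Its intensity was 252.8 with PCN and 246.5 with DMSO, a log2 difference of 0.04. This small difference turned to -0.0095 when a loess trend of difference on level was removed. Papss1 had 99.98 with PCN and 91.2 with DMSO, a log2 difference of 0.13. Bpnt1 encodes the cytosolic nucleotidase that hydrolyses PAP to AMP. Its intensity was 525 with PCN and 476 with DMSO, a log2 difference of 0.14. The differences of these 3 genes lay within the range of the controls, and 73.6% of measured genes had a lower difference than Papss1. Of the 40 controls, 9 were as far above 0 as Papss2. For Papss1 and for Bpnt1 only 1 was, so both lay near the upper edge of that range.

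**Figure D3:**
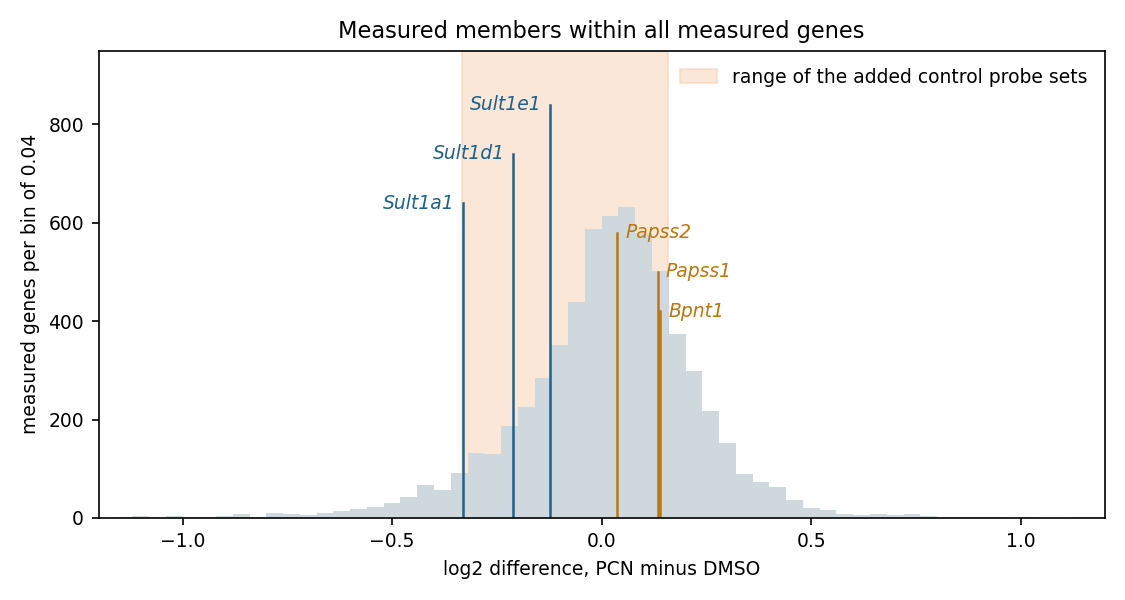
Distribution of the log2 difference (PCN minus DMSO) over measured genes, with vertical lines at the 6 measured members (SULT genes blue, PAPS genes ochre). The shaded band spans the added control probe sets, from -0.33 to 0.16, and all 6 members fall inside it. Line heights only separate the names, and a few genes lie beyond the axis.

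The same arrays showed much larger differences in 3 of 4 known PXR target genes. These 4 were chosen with earlier results of these data known, so their values only describe them. The cytochrome P450 gene Cyp3a25 had an intensity of 1134 with PCN and 145 with DMSO, and Cyp3a11, the main drug-metabolising CYP3A gene of mouse liver, had 15919 with PCN and 8519 with DMSO. Gstm3, a glutathione S-transferase gene, was 2.47-fold higher with PCN. Cyp2b10 was under the floor with DMSO and at least 1.11-fold higher with PCN. Of 6 hepatocyte markers analysed, 5 reached the floor in both arrays, and albumin (Alb) had intensities of 21383 with PCN and 21685 with DMSO. The widest difference among these 5 was that of Hnf4a, a transcription factor of hepatocytes, with 457 with PCN and 529 with DMSO, -0.21 on the log2 scale. Its part in the difference of Sult1d1, of the same size, was not tested. Tat, a tyrosine aminotransferase gene of mature hepatocytes, was under the floor in both. Of 6 stellate cell markers, 0 reached the floor with PCN and 1 with DMSO. Of 6 Kupffer cell and leukocyte markers, 1 did so in each array, namely Cd68, while Clec4f, Adgre1 and Ptprc did not. Of 5 endothelial markers, 2 reached it with PCN and 1 with DMSO, and of 4 bile duct markers 2 did so in each. Lyve1, an endothelial marker, was at least 1.24-fold higher with PCN, and of the bile duct markers Krt19 was 1.32-fold higher and Sox9 1.34-fold lower. These 3 differences lay outside the range of the added controls, and their part in those of the members was not tested.

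The other cytosolic sulfotransferases gave no measurable signal. Of 15 listed genes, 6 were analysed, and Sult1c1, Sult2a8, Sult2b1, Sult3a1, Sult4a1 and Sult6b1 were all under the floor in both arrays. Sult2a8 had an intensity of 10.6 with PCN and 11.1 with DMSO. The other members of the Sult2a group were not analysed here.

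Larger differences were found in the list of genes that form cysteine and oxidise it to sulfate or taurine. This list was chosen with earlier results of these data known, so its counts only describe it. Of 11 listed genes, 10 were analysed and 9 were measured. With PCN 6 of these were lower and 3 higher, beside 42.4% and 57.6% of all measured genes. Lower by 1.5-fold or more were 3 of the 9, beside 1.3% of all measured genes, and 0 were higher to that extent. That count was 2 with a floor of 6 or a pseudocount of 16, and 4 with the loess trend removed. Suox lies just past the threshold, and its level with PCN is under a floor of 6, so that floor shrinks its difference. The median of the 9 was -0.14 on the log2 scale, beside 0.03 over all measured genes. Cdo1, cysteine dioxygenase, which starts the oxidation of cysteine to sulfate and taurine, had an intensity of 1768 with PCN and 3144 with DMSO. It was 1.78-fold lower, a log2 difference of -0.83, and 0.434% of measured genes had a more negative one. Csad, which directs the product of Cdo1 towards taurine, had 156.9 with PCN and 250.7 with DMSO, 1.60-fold lower. Suox, sulfite oxidase, which forms sulfate in mitochondria, had 57.5 with PCN and 86.6 with DMSO, 1.51-fold lower. Cbs, which begins the conversion of homocysteine to cysteine, had 141 with PCN and 206 with DMSO, 1.46-fold lower. These 4 genes lay below the lowest control, at -0.33.

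The other measured genes of that route differed little. Their names were chosen after their values were seen. Ethe1 and Tst, which act in the mitochondrial metabolism of sulfide and thiosulfate, stood at -0.13 and -0.14 on the log2 scale. Got1, Sqor and Cth were the 3 higher ones, at 0.04, 0.04 and 0.12. Cth, cystathionine gamma-lyase, is the enzyme after Cbs in the same route. Mpst was under the floor in both arrays.

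**Figure D4:**
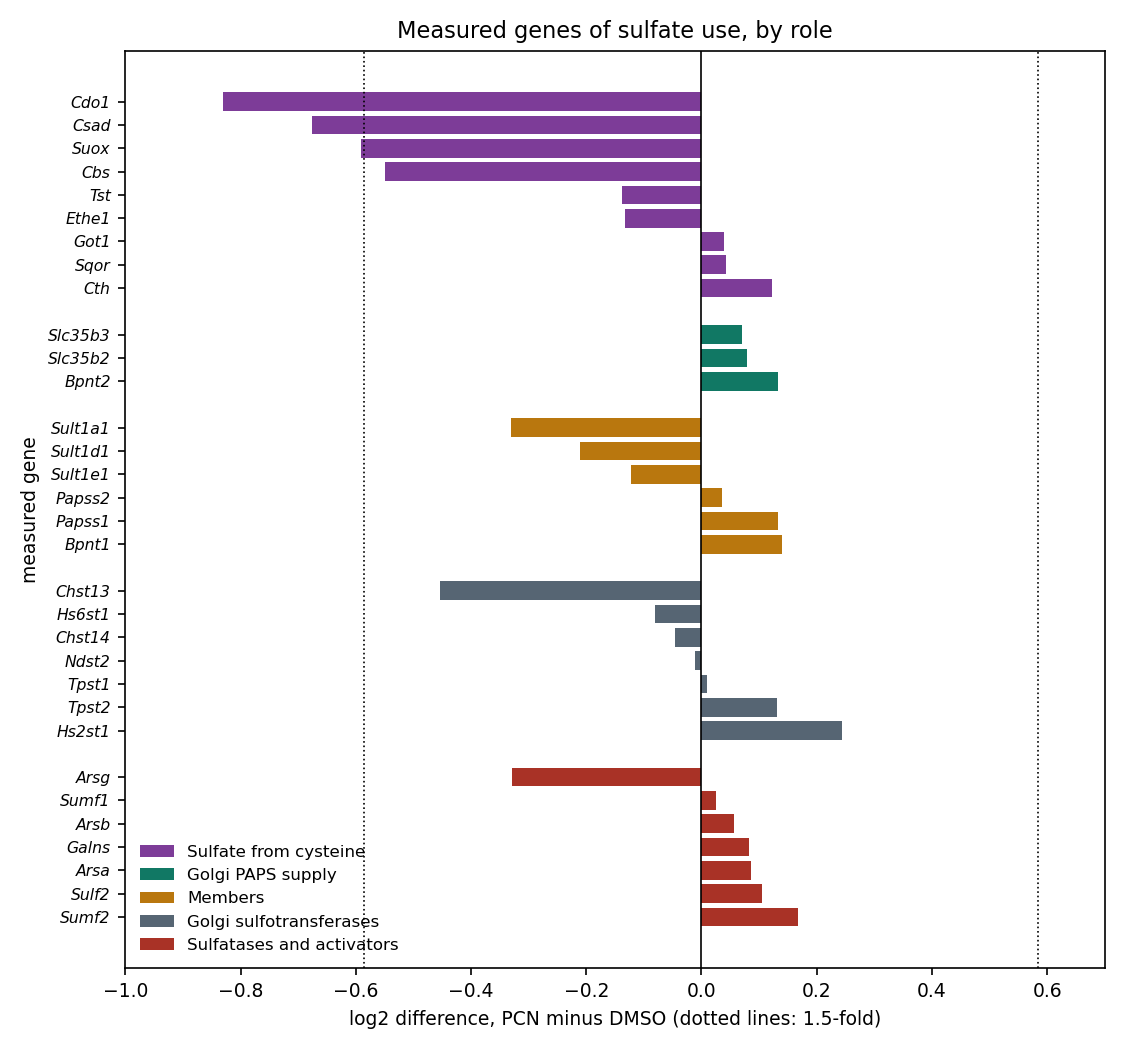
Bars give the log2 difference (PCN minus DMSO) of each measured gene, 1 array per group, coloured by role, from sulfate formation (top) to sulfatases (bottom). Dotted lines mark 1.5-fold. Cdo1, Csad and Suox pass the lower line, and no gene passes the upper one.

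Genes that carry sulfate into cells gave no measurable signal, and those that supply the Golgi with PAPS were close to equal on the arrays. Of 9 listed genes of transport and Golgi PAP hydrolysis, 8 were analysed and 3 measured, all 3 of them higher with PCN, beside 57.6% of all measured genes, and none by 1.2-fold, beside 9.06%. Slc35b2 and Slc35b3, which carry PAPS into the Golgi, stood at 0.08 and 0.07 on the log2 scale. Bpnt2, the Golgi counterpart of Bpnt1, had 351 with PCN and 319.8 with DMSO, a log2 difference of 0.13. The sulfate transporter genes Slc26a1, Slc26a2, Slc26a11, Slc13a1 and Slc13a4 were under the floor in both arrays. Slc26a1, the sulfate anion transporter of hepatocytes, had 14.996 with PCN and 23.84 with DMSO. With a floor of 4, 4 genes of the list were measured. Slc26a1 was then the 1 lower by 1.2-fold or more, beside 738 of all 7716 genes measured with that floor.

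Sulfotransferases of the Golgi, which use the same donor for proteins and glycans, were divided in direction. Of 36 listed genes, 32 were analysed and 7 measured. Of the 7, 3 were higher and 4 lower, beside 57.6% and 42.4% of all measured genes, and the median was -0.01, beside 0.03. By 1.2-fold or more 1 was lower, beside 8.95% of all measured genes, and 2 were lower with a floor of 4. With a floor of 6, 4 were measured, 3 higher and 1 lower, the median was 0.07 and none was lower by 1.2-fold. Chst13, a chondroitin sulfotransferase gene, had 43.9 with PCN and 60.1 with DMSO, 1.37-fold lower. Hs2st1, a heparan sulfate sulfotransferase gene, had 187.9 with PCN and 158.6 with DMSO, 1.18-fold higher. The protein-tyrosine sulfotransferase gene Tpst2 stood at 0.13 on the log2 scale and Hs6st1, which acts on heparan sulfate, at -0.08. Under the floor in both arrays were Ndst3, Ndst4, Hs3st1, Hs3st2, Hs3st3a1, Hs3st3b1, Hs3st5, Hs3st6, Hs6st2, Hs6st3, Ust, Chst1, Chst2, Chst3, Chst4, Chst5, Chst7, Chst8, Chst9, Chst10, Chst11, Chst12, Chst15, Gal3st1 and Gal3st4.

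Sulfatases remove sulfate, and Sumf1, the formylglycine-generating enzyme, activates them. Of 15 listed genes of sulfatases and the SUMF family, 12 were analysed and 7 measured, of which 6 were higher and 1 lower; the median difference was 0.08. Over all measured genes 57.6% were higher and the median was 0.03. With centring on the median difference, or with the loess trend removed, 2 were lower. Arsg, a lysosomal sulfatase gene, had 105.2 with PCN and 132.2 with DMSO, 1.26-fold lower. Sumf2, the paralog of Sumf1, stood at 0.17 on the log2 scale, Sulf2, an extracellular heparan sulfatase gene, at 0.10 and Arsa, arylsulfatase A, at 0.09. Arsj, Arsk, Ids, Sgsh and Sulf1 were under the floor in both arrays.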

How the data were processed

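Per the labels' protocols, biotinylated cRNA was made for each array with 5 µg of RNA combined from 3 samples. The intensity values deposited by the authors were made with GCRMA 2.2.0, per the submitters' processing notes, and are linear (1.13 to 28482). The probe set definition and the build are not given in the sources. GCRMA equalises the distributions of the arrays, which hides any shift in total RNA.

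Probe sets were named from the platform annotation (15644 with 1 symbol, 0 with several, 751 with none). Log2 values, a floor of 5 and differences were computed (Python 3.11.15, with numpy 2.4.6 and pandas 2.3.3). Genes named are the 9 members, the 4 largest differences of each pathway list, genes under the floor in both arrays and 4 PXR check genes; others are marked, except cell type markers, which were named after their values were seen. The members and lists were chosen with earlier results of these data known. With 1 array per group no test was made, and treatment and any batch cannot be told apart. Precision is limited by the number of arrays. The steps were tested on simulated data with differences far larger than those of the members, so that test does not bear on differences of their size. Alternatives were floors of 4 and 6, no floor, quantile normalization, median centring, loess (statsmodels 0.14.6, fraction 0.3), a pseudocount of 16 and thresholds of 1.1, 1.3 and 3-fold. Promoter sequences come from RefSeq, GRCm38.p6.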

Additional observations from a re-analysis of the deposited data

How the results depend on the processing

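Of 41 differences of single members under 7 other settings, all 41 stayed within the control SD of 0.11 of the reported value, and 1, that of Papss2, turned in sign. That was with the loess trend removed, where 1 PAPS gene was lower. For a gene above the floor used, changing or removing the floor leaves its difference the same. Centring shifts every gene by the same 0.03. These settings could not move a member difference past the control SD. Of 56 list medians, 55 stayed within that SD and 4 turned in sign, 3 of them that of all members. Without a floor, which adds genes too dim to measure, the median of the SULT genes was -0.096, 5 members were higher, 2 of them SULT genes, and Sult1c2 was the 1 higher by 1.2-fold and by 1.5-fold. In that setting 1 transport gene was lower by 1.5-fold. With a floor of 4, Sult1b1 was measured, so that 1 SULT gene was higher. At a threshold of 1.1-fold, 1 member was higher and 2 lower, and at 1.3-fold and 3-fold 0 were lower. Over all genes, 92 were higher and 168 lower by 1.5-fold without a floor, 26 and 54 with the pseudocount of 16, and 55 were lower with a floor of 6, beside 41 higher and 84 lower as reported. No replicate could be left out. No paired analysis was possible because there was 1 array for each treatment. Low signal limits Sult1b1, Sult1c2, Sult5a1 and Sult1e1.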
